A study of Mus musculus with 6 samples.

Results

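Cultured mesoderm from mouse embryos, left untreated, was described here by its transcriptome alone. The 2 control libraries of the series were chosen by their label, out of 6 libraries in 3 groups of 2. The remaining 4 libraries had an inhibitor and are not analysed here. The mesoderm was dissected at stage E7.25 after trypsin and pancreatin had loosened the cell layers and the extraembryonic tissue above the amnion had been taken off. Explants were allowed 3 to 4 h to attach to fibronectin in a mixture of rat serum and embryo medium. They were harvested after 27 h of culture by the growth protocol, while the series text gives 24 h. The labels give the genotype as WT and the series text names the TCF/Lef:H2B-GFP reporter strain, in which WNT-responsive elements drive a nuclear green fluorescent protein. Whether the controls received a vehicle is not stated. No label says if each library came from its own embryos, litter or culture, so a difference between them may be biological or technical.

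Mesoderm arises during gastrulation, when epiblast cells pass through the primitive streak, lose their epithelial character and migrate between the outer layers of the embryo. Cells that leave early form extraembryonic mesoderm, blood, endothelium and heart, and later cells form lateral plate, intermediate and paraxial mesoderm, the last of which makes the somites. FGF, WNT, BMP and Nodal signals guide these choices, and the transcription factors T, Eomes and Mesp1 mark the cells in and just outside the streak. Glucose metabolism has been linked to the passage through the streak, and the series set explants given the inhibitors labelled PD and YZ9 against the control explants described below.

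The library of control 1 held 27231057 counts and that of control 2 held 27529450 counts, over 46078 genes. CPM is a gene's count scaled to the total of its library, and TPM also divides by exon length, so that levels of different genes are compared in TPM, except for the 25 genes of highest mean CPM in the next paragraph, which are ordered by CPM. Ratios between the libraries are of CPM throughout. A gene was called expressed at 1 CPM or more in both libraries, which held for 12216 genes, 26.5% of all genes, and for 11476 of 21596 protein-coding genes, or 53.1%. Those expressed genes took up 99.7% of the counts in each library. A further 27854 genes, 60.4% of all genes, had at most 3 counts in each library and are called near 0 below (7051 protein-coding genes, or 32.6%), and the other 6008 genes are called low. A count of 0 in these libraries allows a level of up to 0.110 CPM in control 1 and 0.109 CPM in control 2, for counting error only. With 2 libraries of 1 group no test is possible, and each pair of values below gives control 1 and then control 2, with n = 2 for every mean ± SD.

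Cytoskeletal genes led the transcriptome by share of the counts, an order that favours long transcripts. Actb, which encodes cytoplasmic actin, stood first at 17254 ± 2263 CPM, and Acta2, the smooth muscle actin gene, came next at 9054 ± 1411 CPM. Tpm1, a tropomyosin gene, followed at 6208 ± 502 CPM (number 3 by CPM and 28 by TPM), and the actin monomer binding genes Tmsb4x, Pfn1, Cfl1 and Tmsb10 had 4879.6 ± 584 CPM, 3261 ± 194 CPM, 3031 ± 7.5 CPM and 2959 ± 143 CPM. Cardiac actin Actc1 had 2804 ± 619 CPM, and caldesmon, encoded by Cald1, had 2465 ± 104 CPM (number 20 by CPM and 242 by TPM). Among intermediate filament genes the keratins Krt18 and Krt8 had 2534 ± 40.1 CPM and 2315 ± 445 CPM. The chaperone genes Hsp90ab1 and Hspa5 had 4348 ± 554 CPM and 2944 ± 246 CPM, and Serpinh1, the collagen chaperone, had 3312 ± 813 CPM. The embryonic globin gene Hba-x was ninth by mean level, at 3118 ± 2361 CPM, and its SD was the largest relative to the mean among the 25 highest genes. Mest, an imprinted gene expressed in embryonic mesoderm, had 2387 ± 717 CPM. The other members of the 25 were mt-Cytb, Tubb5, Ftl1, mt-Rnr2, Eif5a, Ywhae, Pdia3, H3f3b and Eef1a1, at means from 2105 to 3955 CPM.

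**Figure D1:**
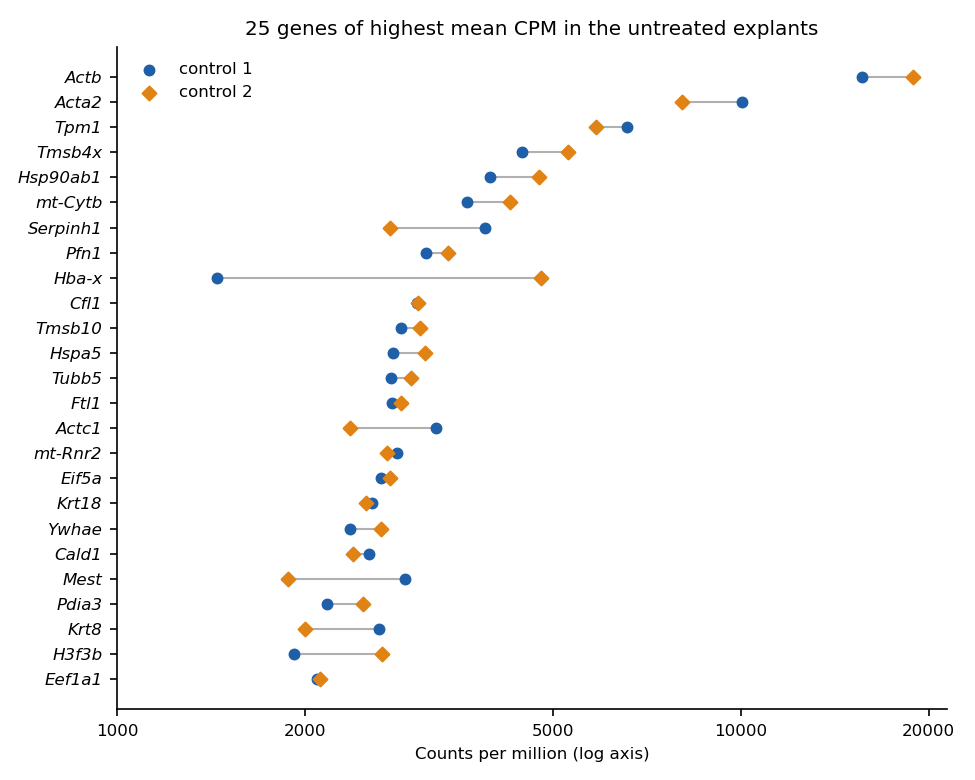
Level of the 25 genes of highest mean CPM, in CPM on a log axis, with a circle for control 1 and a diamond for control 2. The markers of Hba-x lie farthest apart, at 1448 and 4787 CPM, while those of Cfl1 nearly coincide at 3026 and 3037 CPM.

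Several markers of the streak and of nascent mesoderm were at or close to 0, while Eomes and the Nodal branch were expressed. T, the brachyury gene that drives mesoderm formation, had 0 and 0 counts, and Mesp1, expressed as cardiac and cranial mesoderm leaves the streak, had 0 and 4 counts. Tbx6, needed for paraxial mesoderm, had 1 and 0 counts, and Msgn1, its partner in presomitic mesoderm, had 0 and 0. In libraries labelled as mesoderm, T, Mesp1, Tbx6 and Msgn1 thus had at most 4 counts, while genes of several mesoderm derivatives, given below, were high. Of the 15 streak genes listed, 7 were expressed, 4 were low and 4 were near 0, and the median over the list was 0.491 TPM, beside 1.70 TPM over all protein-coding genes. Fgf4 and Wnt3a, a FGF and a WNT ligand of the streak, had no count in either library, and Mesp2, a paralog of Mesp1, had 2 and 0. Members of the Nodal branch of the list had counts all the same. Nodal, the ligand itself, stood at 39.0 and 20.2 TPM, Tdgf1, its coreceptor Cripto, at 11.8 and 10.5 TPM, Fgf8 at 10.3 and 4.85 TPM and the T-box gene Eomes at 5.13 and 3.81 TPM. Each of the 7 expressed streak genes was lower in control 2, as were 6414 of all 12216 expressed genes. The median ratio of control 2 to control 1 was 0.539 for these streak genes, beside 0.982 over all expressed genes. After centring on genes of like GC content it was 0.679 for the streak genes.

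Genes of the pluripotent epiblast were expressed in part. Pou5f1, which encodes OCT4, had 0 and 2 counts, and Utf1 and Esrrb had no count in either library. Zfp42 had 3 and 3 and L1td1 had 0 and 1. Those of the list that were expressed included Slc7a3, a transporter of arginine and lysine, at 42.2 and 34.7 TPM, Klf4, a factor of naive pluripotency that is also made in other tissues, at 11.6 and 13.1 TPM and Otx2, a homeobox gene of the epiblast and the anterior embryo, at 8.21 and 5.64 TPM. In all 6 of 14 were expressed, or 42.9%, beside 53.1% of all protein-coding genes, while 3 were low and 5 were near 0.

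Paraxial mesoderm was represented by forkhead and a few other genes only. Foxc2 and Foxc1, forkhead factors shared with cardiovascular mesoderm, had 12.7 and 7.98 TPM and 7.33 and 6.60 TPM. Meox1, a somite homeobox gene, had 11.3 and 6.32 TPM, and Tbx18, of somites and epicardium, had 6.03 and 6.0 TPM. Besides Tbx6 and Msgn1, Meox2, Pax1, Uncx and Myf5 had no count in either library and Tcf15 had 2 and 2, so that 7 of 18 genes were near 0 and 5 were expressed. Of the 7 genes of intermediate mesoderm, the source of kidney and gonad, 4 were expressed: Osr1 at 9.09 and 2.75 TPM, Lhx1 at 4.61 and 2.76 TPM, Wt1 at 3.57 and 1.89 TPM and Gdnf at 0.878 and 1.4 TPM. That was 57.1% of the list, near the 53.1% of all protein-coding genes. Pax2, the early kidney regulator, had 2 and 3 counts.

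Lateral plate and extraembryonic mesoderm genes formed the fullest of the mesoderm lists. The lists were chosen with earlier results of these data known, so how full a list is depends on that choice. In this list 17 of 18 genes were expressed, with a list median of 35.4 TPM, and only Tbx4, a hindlimb and allantois T-box gene, was near 0 with 3 and 0 counts. Krt8 had 4213 and 3072 TPM and Pmp22, a membrane protein gene, had 2306 and 1917 TPM. Bmp4, a signal from extraembryonic tissues and posterior mesoderm that induces mesodermal derivatives, had 478 and 344 TPM. Hand1, a helix-loop-helix factor of extraembryonic and cardiac mesoderm, had 373 and 182 TPM. Bmp4 and Hand1 lay far above the median of expressed genes, 16.5 TPM, in both libraries, although Hand1 was 1.96 times as high in control 1 by CPM.

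Mesenchymal genes accompanied them, with 14 of 16 expressed. Sparc, a collagen-binding matrix protein gene, had 1699 and 1631 TPM, and Vim, the mesenchymal intermediate filament gene, had 831 and 662 TPM. S100a6 and Tgfbi had 275 and 296 TPM and 117 and 66.6 TPM. S100a4 alone was near 0, at 1 and 2 counts. Adhesion genes differed in level: E-cadherin, Cdh1, had 1.23 and 2.41 TPM, whereas N-cadherin, Cdh2, which was looked up after the values were known, had 104 and 66.9 TPM. Keratins led the epithelial list, where Krt18, Krt8 and Krt19 had 5593 and 5243 TPM, 4213 and 3072 TPM and 1352 and 790.0 TPM, and Dsp, a desmosome gene, had 35.7 and 29.0 TPM. Cldn3, a tight junction gene, had no count in either library.

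**Figure D2:**
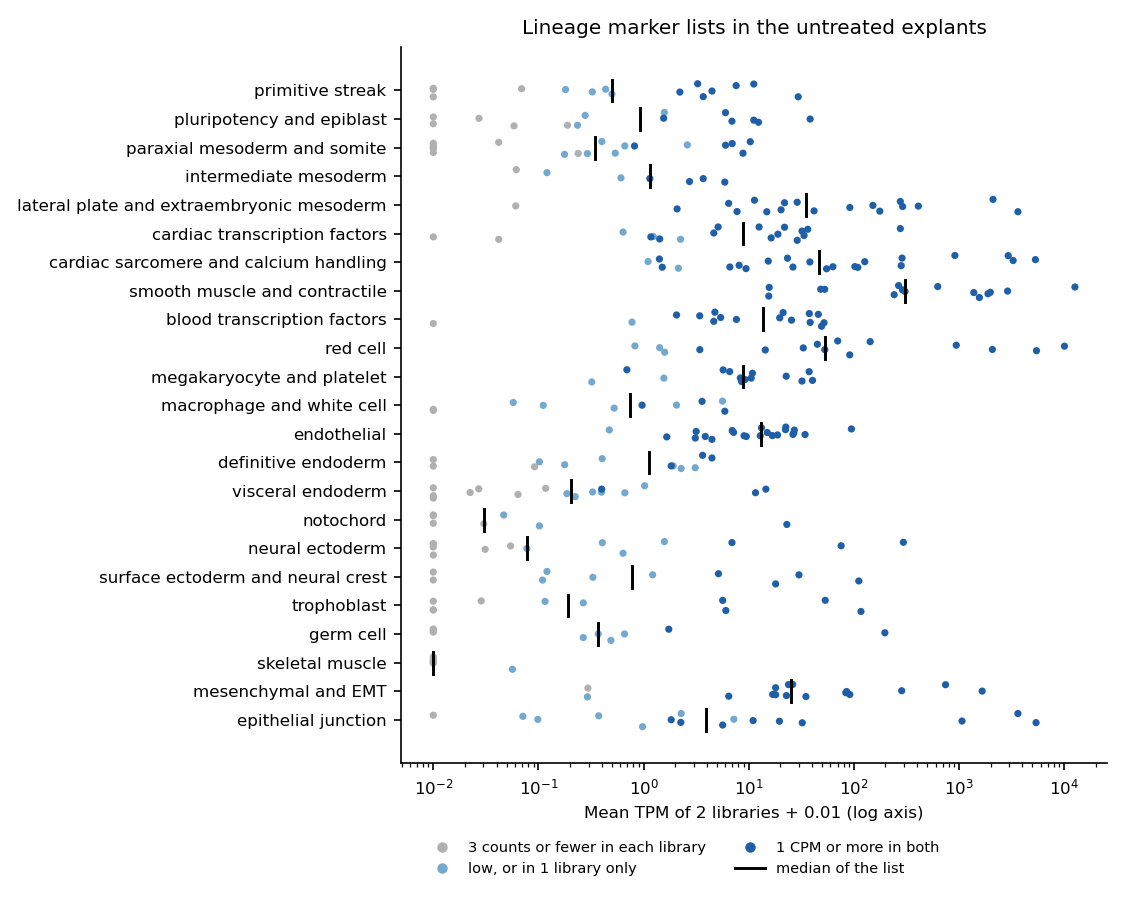
Mean TPM of the 2 control libraries plus 0.01, on a log axis, for each gene of 23 lineage lists, with 1 point a gene, the colour giving its class and the black bar the list median. Contractile, sarcomere, red cell and lateral plate genes lie to the right, and the medians of the notochord, neural ectoderm, trophoblast and skeletal muscle lists lie far to the left.

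Heart muscle genes were expressed at high levels. The list of sarcomere and calcium handling genes had 20 of 22 members expressed and none near 0. Its genes took up 1.32% and 1.15% of all counts (Wilson 95% intervals 1.317% to 1.325% and 1.144% to 1.152%, which cover counting error only). Much of that share came from Tpm1, also named among the cytoskeletal genes above, and Actc1. Tpm1 had 6563 and 5853 CPM and Actc1 3242 and 2367 CPM, of 13209 and 11480 CPM for the list. Actc1, the actin of the embryonic heart, had 6285 and 4398 TPM. Myl7, the atrial regulatory light chain expressed in the early heart tube, had 3272 and 3288 TPM, and Tpm1 had 3174 and 2714 TPM. Troponin genes were present as Tnnc1 at 876 and 956 TPM and Tnnt2 at 299 and 277 TPM. The 2 members that were not expressed were Myl2, the ventricular light chain, with 19 and 19 counts, and Tnni3, the troponin of the mature heart, with 14 and 66. Other genes used in the ventricle were expressed, Myh7, a myosin heavy chain, at 125 and 79.4 TPM and Myl3, a light chain, at 20.9 and 25.9 TPM; these 4 were picked out after the values were known.

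Of the cardiac transcription factors, 13 of 18 were expressed, and after Hand1 the highest were Mef2c at 35.8 and 37.2 TPM, Myocd at 46.2 and 21.1 TPM and Isl1 at 32.1 and 32.2 TPM. Mef2c and Isl1 act in the second heart field, and Myocd is a coactivator of serum response factor (SRF) in heart and smooth muscle. Tbx1, of pharyngeal mesoderm, had 1 and 1 counts, and Irx4, a ventricular gene, had 0 and 0. Nkx2-5, the homeobox gene of the cardiac lineage, had 14.8 and 3.27 CPM and was the listed cardiac factor on which the libraries differed most, 4.53-fold (95% counting interval 3.59 to 5.75) higher in control 1. Its longest transcript was 67.1% G and C, and the ratio after centring on genes of like GC content was 3.27-fold. By CPM, Actc1 was 1.37 times higher in control 1, and Myl7 was 1.05 times higher in control 2.

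All 15 smooth muscle and contractile genes were expressed, with a median of 307 TPM, and they took up 2.06% and 1.70% of the counts. Acta2 led with 14355 and 11031 TPM, followed by the myosin light chain gene Myl9 at 3069 and 2739.8 TPM, the tropomyosin gene Tpm4 at 1966 and 2013 TPM and skeletal actin Acta1 at 2004 and 1779 TPM. The actin genes are close in sequence, and how reads shared among them were assigned is not given in the sources used here, so the split among actins is uncertain. Skeletal muscle regulators were near 0 beside them. Myod1, Myog, Myf5 and Myf6, the myogenic factors, as well as Ckm and Myh3, had no count in either library.

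Promoter stretches are shown for the 4 contractile genes of highest level that hold a CArG box, the sequence SRF binds, in the 250 bases before their RefSeq start. The stretches run 5′ to 3′ on the gene's strand, from the RefSeq table of build GRCm38.p6, with the CArG box in capitals: Actc1 at chr2:114052888-114052947 (minus strand), Myl7 at chr11:5898809-5898868 (minus strand), Myl9 at chr2:156775278-156775337 (plus strand) and Acta1 at chr8:123894814-123894873 (minus strand).
Actc1: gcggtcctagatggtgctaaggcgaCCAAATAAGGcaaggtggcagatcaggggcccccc
Myl7: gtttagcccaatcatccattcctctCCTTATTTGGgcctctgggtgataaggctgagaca
Myl9: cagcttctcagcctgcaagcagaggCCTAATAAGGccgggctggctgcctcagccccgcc
Acta1: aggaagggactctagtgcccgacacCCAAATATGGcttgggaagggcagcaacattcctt
A CArG box was found on either strand in 7 of the 31 expressed contractile and sarcomere genes with a promoter in the table, or 22.6%, the others being Cnn2, Myl3 and Nebl. Over all 27025 genes of that table the share was 1.62%, and it was 0 of 25 for the expressed ribosomal protein genes. The match describes letters in a window and shows no binding.

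The explants contained transcripts of primitive blood. Of 15 red cell genes 12 were expressed and none was near 0. Hba-x, the zeta chain of the first embryonic red cells, had 4842 and 15346 TPM, Hbb-bh1 had 3325 and 7609.8 TPM and Hbb-y had 1119.5 and 3043 TPM; these beta-like chains pair with Hba-x in the yolk sac. Hba-a1, an alpha chain used from embryo to adult, had 532 and 1356 TPM, but Hba-a2 was listed at 5 and 12 counts. Hbb-bs had 566 and 1417 counts and Hbb-bt 6 and 14. Hba-a1 and Hba-a2, and likewise Hbb-bs and Hbb-bt, are near-identical copies, named for that reason, so the division within each pair is uncertain. How reads shared by such copies were counted is not given in the sources used here, so the pair totals are uncertain too. As counted, the embryonic chains lay above the chains shared with the adult in both libraries. All 7 listed globins held 0.248% of the counts in control 1 (Wilson 95% interval 0.246% to 0.250%) and 0.740% in control 2 (0.737% to 0.743%). In bulk libraries a larger number of red cells and more globin RNA per cell cannot be told apart.

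Stretches of 170 bases are shown for 3 of these globin genes, the members that take up most blood counts and have an entry in the RefSeq promoter table. They end at the base before the start, run 5′ to 3′ on the gene's strand and have GATAA (the core that GATA factors bind), CCACCC (a box bound by KLF factors) and TATAAA in capitals, on either strand. Hba-x lies at chr11:32276430-32276599 (plus strand), Hba-a1 at chr11:32283502-32283671 (plus strand) and Hbb-y at chr7:103853208-103853377 (minus strand).
Hba-x: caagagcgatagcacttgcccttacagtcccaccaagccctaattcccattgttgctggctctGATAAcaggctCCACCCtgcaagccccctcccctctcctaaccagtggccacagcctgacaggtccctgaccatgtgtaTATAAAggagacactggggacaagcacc
Hba-a1: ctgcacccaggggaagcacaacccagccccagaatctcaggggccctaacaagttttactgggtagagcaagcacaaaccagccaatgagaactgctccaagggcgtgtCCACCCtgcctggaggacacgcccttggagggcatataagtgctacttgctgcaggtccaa
Hbb-y: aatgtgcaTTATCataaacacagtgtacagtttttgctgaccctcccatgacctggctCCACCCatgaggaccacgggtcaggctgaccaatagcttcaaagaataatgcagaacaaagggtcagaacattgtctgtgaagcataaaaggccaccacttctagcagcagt
Among the 10 expressed red cell genes in the table, GATAA was found within 250 bases in 7 and CCACCC in 7, or 70% each, beside 25.5% and 30.6% of all genes. TATAAA was found in 4 of the 10, beside 14.3% of all genes. CCACCC was about as frequent in the contractile and sarcomere set, where 67.7% of 31 genes held it.

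The regulators of those cells were expressed too. Nfe2 and Klf1, erythroid activators of globin genes, had 35.8 and 68.4 TPM and 33.9 and 64.7 TPM. Fli1, an ETS factor of endothelium and megakaryocytes, had 41.8 and 50.2 TPM, and Gata1, the master regulator of red cells, had 28.8 and 48.2 TPM. In total 14 of 16 blood transcription factors were expressed, and Gfi1, of later white cells and stem cells, had no count in either library. Megakaryocyte and platelet genes were present at lower levels, led by the tubulin gene Tubb1 at 37.9 and 43.0 TPM, Plek, a signalling protein of platelets, at 21.8 and 53.4 TPM, the platelet integrin gene Itgb3 at 32.0 and 32.3 TPM and the platelet chemokine gene Pf4 at 9.74 and 35.7 TPM. White cells left little trace. C1qa and C1qb, complement genes of macrophages, had no count in either library, and the lysosomal, lysozyme and growth factor receptor genes Cd68, Lyz2 and Csf1r had 5.59 and 6.26 TPM, 2.63 and 4.56 TPM and 1.24 and 0.681 TPM.

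Endothelial genes were expressed at moderate levels, with 21 of 22 members expressed and none near 0. Tek, the angiopoietin receptor gene, had 107 and 83.1 TPM, and Etv2, the factor that starts the blood and endothelial program, had 35.5 and 33.3 TPM. Cd34, a surface protein gene of blood and vessel progenitors, and Egfl7, a secreted vessel factor gene, had 19.7 and 34.6 TPM and 24.9 and 28.9 TPM. Kdr, the VEGF receptor gene of blood and endothelial precursors, had 19.1 and 14.5 TPM. The summed level of the list was 415 and 346 TPM, while that of the red cell list was 10143 and 27946 TPM, so the lists did not shift the same way between the libraries.

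Markers of tissues that lie beside the mesoderm were scarce. In definitive endoderm 3 of 12 genes were expressed: Sox17, shared with endothelium, at 6.23 and 2.7 TPM, Hhex, of anterior endoderm and vessel precursors, at 3.12 and 4.15 TPM and Cdh1 as above. Cer1 and Nkx2-1, of anterior endoderm and its derivatives, had no count in either library, and Foxa3 had 1 and 2. For visceral endoderm 3 of 16 were expressed, namely the endocytic receptor genes Lrp2 and Cubn at 17.1 and 12.1 TPM and 0.216 and 0.563 TPM and the retinol carrier Rbp4 at 7.12 and 16.1 TPM. Apoa4, Apoc2 and Hnf4a, genes of its secretory program, had no count in either library, and Apoa2, Apob and Apom had 1 and 0, 3 and 0 and 0 and 1. The summed level of the visceral endoderm list was 28.3 and 30.8 TPM.

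Among ectodermal and axial markers, 1 of 7 notochord, 3 of 13 neural and 4 of 10 surface ectoderm and crest genes were expressed. Noto and Foxj1, of the node and notochord, had no count in either library, and Shh, the notochord signal, had 1 and 0 counts. Nog, a BMP antagonist, was the 1 notochord gene expressed, at 25.8 and 20.4 TPM. Sox1, Zic1, Fezf1 and Hesx1, of neural plate and forebrain, had no count in either library, and Six3 and Olig2 had 2 and 0 and 1 and 1. Tubb3 and Nes, which are used as neural markers but are also made elsewhere in the embryo, had 355 and 238 TPM and 96.1 and 55.4 TPM. Sox10 and Foxd3, of neural crest, had no count in either library, while Perp, Ets1, Krt14 and Grhl3 of the surface ectoderm and crest list had 117 and 106 TPM, 33.1 and 27.1 TPM, 21.7 and 14.4 TPM and 6.86 and 3.45 TPM.

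The trophoblast genes Tpbpa, Prl3d1 and Ascl2 had no count in either library and Elf5 had 0 and 2. Esx1, a homeobox gene of extraembryonic tissue, and Peg10, an imprinted gene of the placenta, had 127 and 107 TPM and 63.8 and 43.2 TPM. Cdx2, shared by trophoblast and posterior embryo, had 10.0 and 2.08 TPM, and Krt7 had 4.62 and 6.68 TPM. Of 9 germ cell genes 3 were near 0 and 4 were low. Prdm14, Dppa3 and Dazl had no count in either library, and of the list only Ifitm3, which is widely expressed, at 200.1 and 195 TPM, and Dnd1, at 2.05 and 1.4 TPM, were expressed.

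Hox genes, which report position along the body axis, were mostly low or near 0. Of 11 Hox A genes 8 were near 0, of which Hoxa4, Hoxa5, Hoxa6 and Hoxa7 had no count in either library. In cluster B 4 of 10 were expressed, Hoxb5 at 6.24 and 4.19 TPM, Hoxb2 at 4.99 and 4.07 TPM, Hoxb4 at 3.37 and 3.28 TPM and Hoxb6 at 2.46 and 3.56 TPM, and Hoxb13 had no count in either library. None of the 18 Hox C and D genes was expressed. Hoxc11, Hoxc12 and Hoxd3 had no count in either library, and Hoxd1 and Hoxd4 had 0 and 1 and 0 and 2. Cdx1 and Cdx4, which switch on posterior Hox genes, had no count in either library. Cofactors of HOX proteins were expressed: Meis3, Meis1 and Pbx2 had 58.9 and 27.9 TPM, 42.8 and 38.8 TPM and 23.8 and 22.7 TPM.

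All 18 embryonic growth and imprinted genes were expressed, with a median of 233 TPM. Mest had 2300.4 and 1433 TPM, H19, a noncoding RNA that shares enhancers with Igf2, had 1497 and 982 TPM, and Grb10, an adaptor that limits insulin signalling, had 739 and 381 TPM. Igf2, the fetal growth factor, had 549 and 389 TPM. By CPM these 4 genes were lower in control 2, by 1.54, 1.46, 1.86 and 1.35 times.

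FGF signalling parts were present with a narrow set of ligands. Only 5 of 21 ligands were expressed. Fgf10, a ligand of second heart field and limb mesoderm, was far above the rest at 65.0 and 67.3 TPM, and Fgf8, Fgf13 and Fgf5 had 10.3 and 4.85 TPM, 6.42 and 6.39 TPM and 7.78 and 4.24 TPM. Besides Fgf4, the ligands Fgf16, Fgf20 and Fgf22 had no count in either library, and Fgf17 and Fgf21 had 0 and 2 and 0 and 2. On the receiving side 7 of 11 were expressed: Fgfr1, the main receptor of early mesoderm, had 19.8 and 11.9 TPM, its adaptor Frs2 had 16.6 and 13.5 TPM, and the FGF receptor-binding membrane proteins Flrt3 and Flrt2 had 108 and 73.5 TPM and 61.1 and 48.3 TPM. The coreceptors of endocrine FGFs, Kl and Klb, had 2 and 0 and 0 and 0 counts. All 18 ERK targets and feedback genes were expressed. Dusp6, an ERK phosphatase that ERK itself induces, had 236 and 209.8 TPM, Spry2, a feedback inhibitor, had 112 and 143 TPM, the growth factor response gene Phlda1 had 452 and 354 TPM and Myc, a growth regulator, had 113 and 94.6 TPM.

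WNT ligands were led by Wnt2, of extraembryonic and cardiac mesoderm, at 49.8 and 36.6 TPM. Wnt5a, a ligand mostly of the beta-catenin-independent branch, had 38.8 and 15.2 TPM, Wnt4 had 30.8 and 21.9 TPM and Wnt3, which induces the streak, had 2.96 and 1.46 TPM. Wnt1, Wnt8a and Wnt8b, like Wnt3a, had no count in either library, and Wnt7a and Wnt9b had 0 and 3 and 1 and 0, leaving 6 of 19 expressed. Receptors and effectors were nearly complete, with 20 of 23 expressed, among them the beta-catenin gene Ctnnb1 at 205 and 196 TPM, Tcf7l2 and Tcf7l1, which bind it on DNA, at 81.3 and 78.6 TPM and 66.6 and 54.3 TPM, and the receptor gene Fzd2 at 89.9 and 42.9 TPM. Fzd9 had 0 and 1 counts. Of the WNT antagonists and targets 13 of 21 were expressed, and the list median was 1.28 TPM, under that of all protein-coding genes. The highest members were secreted modulators. Rspo3, which amplifies WNT signals, had 142 and 116 TPM, and the antagonists Sfrp1, Dkk1 and Dkk2 had 51.0 and 66.6 TPM, 41.1 and 44.3 TPM and 30.0 and 26.9 TPM. Notum, an enzyme that inactivates WNT proteins and is itself a WNT target, had no count in either library. Axin2, the general feedback target, was picked out after its values were known and had 0.983 and 1.15 TPM, well under the median of expressed genes.

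Among BMP genes, the ligand gene Bmp4 and several target genes had high RNA levels. After Bmp4, given above, came Bmp2 at 53.7 and 42.0 TPM, Gdf6 at 18.7 and 9.28 TPM and Bmp7 at 10.3 and 6.36 TPM. In all 6 of 11 ligands were expressed, or 54.5%, near the 53.1% of all protein-coding genes. Bmp10, of the trabeculated heart, and Gdf7 had no count in either library, and Bmp3 had 0 and 2. The receptor gene Bmpr1a had 54.6 and 58.5 TPM, and the binding proteins and antagonists Twsg1, Nog and Fst had 41.9 and 37.5 TPM, 25.8 and 20.4 TPM and 20.3 and 21.6 TPM. Id3, Id1 and Id2, direct targets of BMP-activated SMADs, had 628 and 600.4 TPM, 175 and 142 TPM and 97.1 and 91.9 TPM, and Bambi, a decoy receptor that BMP induces, had 98.1 and 75.1 TPM. Of the targets 9 of 11 were expressed. The list median was 14.9 TPM for the targets and 3.94 TPM for the ligands, beside 1.70 TPM over all protein-coding genes. Activity of the pathway was not tested.

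Among the Nodal and TGF-beta genes 16 of 18 were expressed. They included Tgfb2, the TGF-beta ligand of cardiac mesenchyme, at 232 and 188 TPM, Lefty2, a Nodal antagonist made in left lateral plate, at 130.4 and 98.0 TPM, and Foxh1, the DNA-binding partner of Nodal-activated SMADs, at 134 and 81.6 TPM. Inhbb had 0 and 1 counts. Lefty2 and Foxh1 thus had several times the level of Nodal in both libraries.

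**Figure D3:**
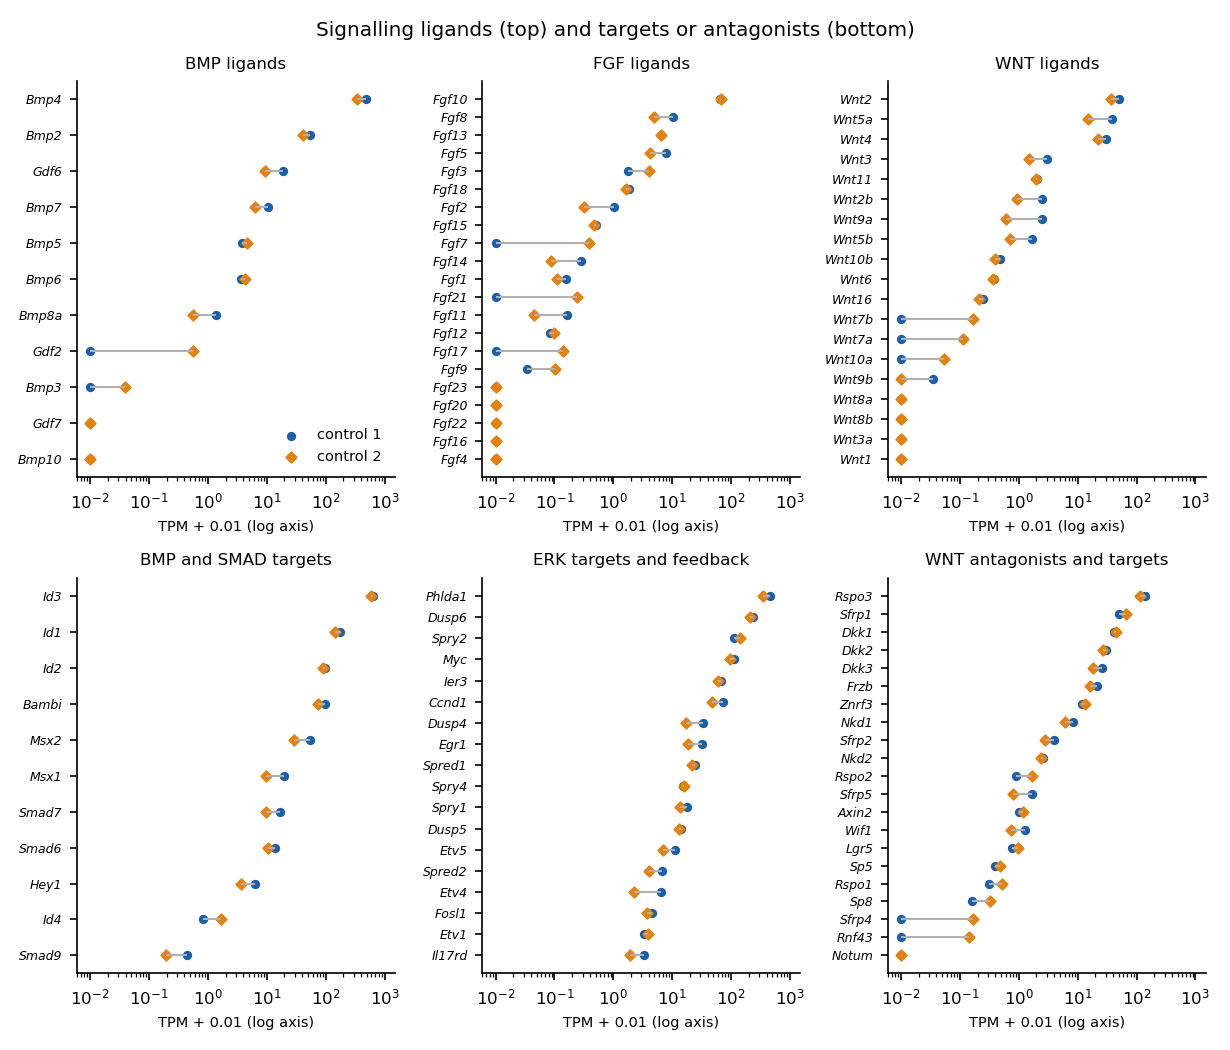
TPM plus 0.01 on log axes for each gene of the BMP, FGF and WNT ligand lists (top) and of their target or antagonist lists (bottom), with a circle for control 1 and a diamond for control 2. Bmp4, Fgf10 and Wnt2 head their ligand lists, and every ERK target lies above 1 TPM in both libraries.

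Notch, Hedgehog and retinoic acid genes were expressed in part. For Notch, the ligand gene Jag1 had 75.3 and 83.4 TPM, the receptor gene Notch2 19.8 and 25.6 TPM, the DNA-binding partner Rbpj 7.80 and 6.49 TPM and Hes1, a target with other inputs too, 126 and 121 TPM. The ligand gene Dll4 had 1 and 0 counts, and the target genes Hes5 and Nrarp had 0 and 0 and 3 and 0. Of the Notch list 9 of 18 were expressed, or 50%, near the 53.1% of all protein-coding genes. Hedgehog ligands were near 0, with 1 and 0 counts for Shh and 0 and 1 for Ihh, as was Gli1, the target that reads out the pathway, with no count in either library. The coreceptor genes Gas1 and Cdon had 27.2 and 23.1 TPM and 6.96 and 4.01 TPM, the transducer gene Smo 12.3 and 8.32 TPM and Gli3, mainly a repressor, 32.3 and 27.2 TPM. For retinoic acid 13 of 15 genes were expressed, led by the retinol dehydrogenase gene Rdh10 at 45.5 and 32.3 TPM, with Dhrs3 at 24.8 and 26.2 TPM and Crabp1 at 21.1 and 15.7 TPM. Aldh1a2, which makes retinoic acid in trunk mesoderm and was picked out after its values were known, had only 7 and 2 counts.

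Receptor tyrosine kinase genes and their ligands were broadly expressed, 24 of 25. After Igf2, the highest were Nrp1, a coreceptor for VEGF and semaphorins, at 364 and 313 TPM, Kitl, the ligand of KIT, at 42.6 and 41.7 TPM and Pdgfa at 38.4 and 36.5 TPM. Guidance genes were expressed in 17 of 19 cases. Cxcl12, a chemokine that directs migrating cells, had 142 and 69.9 TPM, Ackr3, its scavenging receptor, had 36.2 and 23.1 TPM, and the ephrin genes Efnb2 and Efnb1 had 51.0 and 45.1 TPM and 57.8 and 27.0 TPM.

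Genes on the list of YAP and SRF, transcriptional regulators that respond to tension and to actin assembly, and of their targets were all expressed, 15 of 15, with a median of 54.8 TPM. Ccn1, a matricellular YAP target, had 2329 and 1765 TPM, and Ankrd1 had 964 and 986 TPM. Tagln, an actin-binding protein gene, had 1774 and 1357 TPM, of which an unstated part may come from genes on the other strand, since Pcsk7 and Gm48529 overlap 67.9% of its exons and the kit does not keep strand. Immediate early genes, which respond within minutes to stimulation and to handling, were expressed in 13 of 15 cases: Btg2 at 501 and 636 TPM, Ier2 at 495 and 429 TPM, Dusp1 at 180.1 and 197 TPM and Jun at 143 and 57.5 TPM, with Egr3 at 0 and 1 counts.

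Matrix genes were broadly expressed. Of fibrillar and other collagens 14 of 18 were expressed. Col1a1, of type I collagen, had 405 and 251 TPM and its partner chain Col1a2 68.8 and 65.6 TPM, Col3a1 had 92.1 and 76.2 TPM and Col5a1 75.4 and 54.0 TPM. In the basement membrane list 17 of 23 were expressed, led by the nidogen genes Nid1 and Nid2 at 184 and 145 TPM and 133 and 76.2 TPM and the laminin chains Lamb1 and Lamc1 at 105 and 69.7 TPM and 97.2 and 70.1 TPM. Fn1, the fibronectin gene on whose product mesoderm migrates, had 326 and 275 TPM, the adhesion modulator Thbs1 342 and 291 TPM and Postn, of heart and fibrous mesenchyme, 289 and 243 TPM. Vtn, the gene of vitronectin, had no count in either library.

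Integrin genes were dominated by Itgb1, the common beta chain, at 1023 and 969.7 TPM. The alpha chains Itga5, which pairs with it to bind fibronectin, and Itgav had 96.2 and 40.7 TPM and 38.8 and 41.2 TPM, and Itgb5 had 36.7 and 33.6 TPM. Gpc3, a glypican gene of mesoderm that restrains growth, had 1159 and 1008 TPM, with Gpc4, Sdc2 and Cd44 at 239.6 and 143 TPM, 165 and 139 TPM and 139.8 and 105 TPM, whereas Acan, Gpc5 and Has1 had 3 and 0, 0 and 3 and 0 and 0 counts. Serpinh1 led the list of matrix proteases, inhibitors and processing enzymes at 4990 and 3369 TPM. Mmp9 and Mmp2, which degrade type IV collagen, had 278 and 175 TPM and 167 and 119 TPM, and Plaur, the urokinase receptor gene, had 178 and 162 TPM. Mmp3 and Timp4 had 0 and 1 and 0 and 0 counts.

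Among the glucose transporter genes 1 dominated. Slc2a1, which encodes GLUT1, had 1813 and 967 TPM and Slc2a3, which encodes GLUT3, had 193 and 113 TPM. Slc16a1 and Slc16a3, carriers of lactate and pyruvate, had 59.6 and 60.2 TPM and 11.5 and 4.54 TPM. Slc2a2, the liver and islet transporter, Slc5a1 and Slc16a8 had no count in either library. By CPM, Slc2a1 and Slc2a3 were both lower in control 2, by 1.8 and 1.64 times, more than most genes.

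Every step of glycolysis had an expressed enzyme gene, with 17 of 24 isozyme genes expressed and a summed level of 5510.3 and 4637 TPM. Aldoa, Pkm, Eno1 and Ldha, the aldolase, pyruvate kinase, enolase and lactate dehydrogenase isozymes of most embryonic tissue, had 1101 and 975 TPM, 1203 and 792 TPM, 1034 and 840.3 TPM and 673 and 628 TPM. Hk2, a hexokinase gene, had 63.5 and 54.1 TPM, above Hk1, another hexokinase gene, at 10.5 and 5.07 TPM in both libraries. Hk3, Pklr and Ldhc, isozymes of blood, liver and testis, had no count in either library. Pfkfb3, whose product makes the fructose 2,6-bisphosphate that activates phosphofructokinase, had 28.7 and 12.7 TPM and 1881 and 882 counts, and its 2.16-fold (95% counting interval 1.99 to 2.34) higher CPM in control 1 was the widest gap of its list. Tigar, which opposes it, had 18.0 and 19.7 TPM, and Pfkfb1 and Pfkfb4 had 16.3 and 14.4 TPM and 4.47 and 2.49 TPM. Pfkfb3 was thus the highest gene of that list in control 1 and stood below Tigar and Pfkfb1 in control 2.

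Side branches of glucose use were expressed as well. All 8 hexosamine pathway genes were expressed, with Ogt, which attaches N-acetylglucosamine to proteins, at 68.7 and 67.4 TPM, the shared glycolytic enzyme gene Gpi1 at 66.8 and 47.6 TPM, Pgm3 at 46.0 and 51.8 TPM and Uap1 at 43.8 and 48.6 TPM. Of 8 pentose phosphate genes 7 were expressed: Taldo1, Pgls, Tkt and Pgd had 201 and 206 TPM, 56.5 and 41.1 TPM, 55.4 and 38 TPM and 38.8 and 28.8 TPM, and Tktl1 had 3 and 2 counts.

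**Figure D4:**
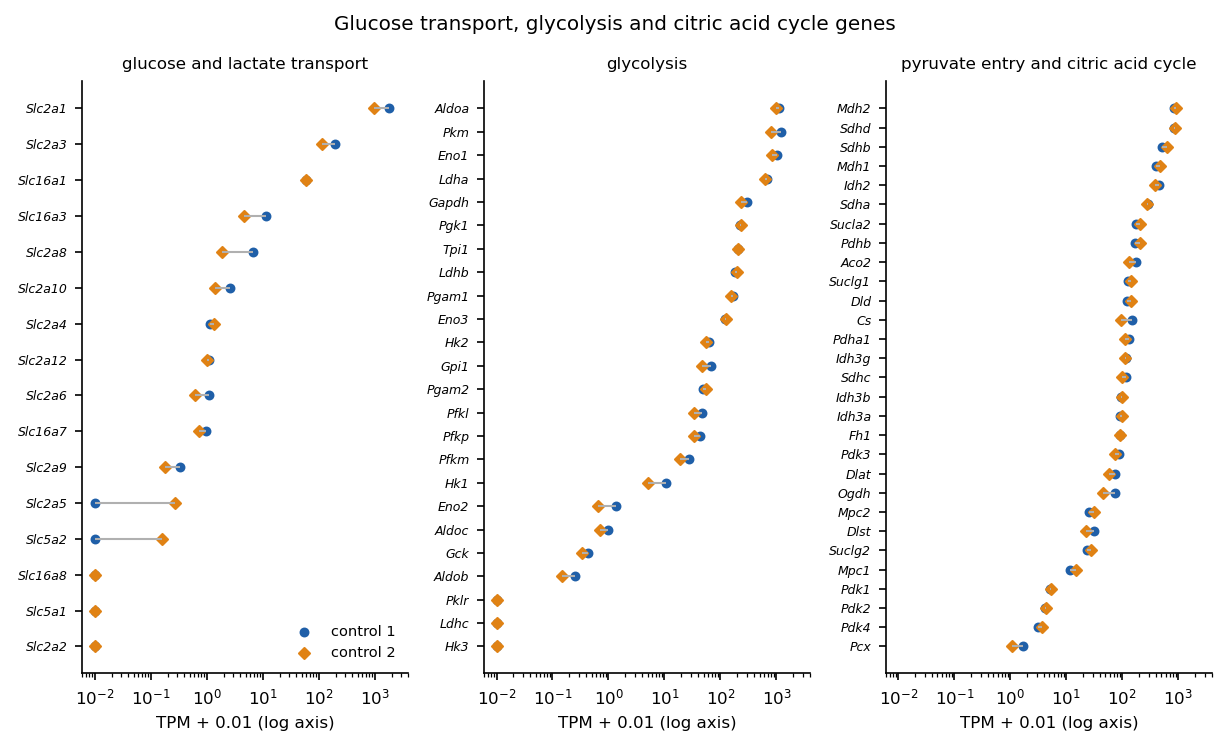
TPM plus 0.01 on log axes for the genes of glucose and lactate transport, glycolysis, and pyruvate entry and the citric acid cycle, with a circle for control 1 and a diamond for control 2. Slc2a1 lies far above the other transporters, and all citric acid cycle genes lie above 1 TPM in both libraries.

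Genes of oxidative metabolism were broadly expressed. All 29 genes of pyruvate entry and the citric acid cycle were expressed, with a median of 107 TPM, and their summed level was 5208 and 5337 TPM. The malate dehydrogenases Mdh2 and Mdh1 had 839.6 and 907 TPM and 407 and 463 TPM, and the succinate dehydrogenase subunits Sdhd and Sdhb 835 and 867 TPM and 504 and 617 TPM. Of 24 nuclear respiratory chain genes listed, which are a part of all such genes, 23 were expressed, among them Cox6a1 at 1426 and 1374 TPM, Cox8a at 979 and 976 TPM, Atp5b at 1027 and 878 TPM and Cox7a2 at 819.5 and 922 TPM. Mitochondrially encoded genes were mostly either very high or listed at 0. mt-Cytb had 9978 and 11222 TPM and mt-Nd1 3702 and 3609 TPM, while mt-Co2, mt-Co3, mt-Nd3, mt-Nd4l and mt-Atp8, parts of the same polycistronic transcripts, were listed at 0 in both libraries. For these genes a listed 0 is not taken as absence, and the counting step is not given in the sources used here.

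All 18 sterol synthesis genes were expressed, led by Hmgcs1 at 266 and 245 TPM and Sqle at 127 and 119 TPM, and so were 18 of 20 fatty acid genes, led by Scd2 at 118 and 98.2 TPM and Acly at 113 and 62.8 TPM. Asns, which makes asparagine and responds to amino acid stress, had 554 and 552 TPM, and Slc3a2, Mthfd2 and Psat1, of amino acid uptake, one-carbon and serine metabolism, had 253 and 233 TPM, 201 and 161 TPM and 175 and 184 TPM. In the hypoxia list 17 of 18 were expressed, with P4ha1 at 156 and 122 TPM and Hif1a at 139 and 111 TPM. All 22 cell cycle genes were expressed, among them Cdk4 at 688 and 610.5 TPM and Ccnb2, a mitotic cyclin gene, at 255 and 308 TPM, but also the arrest genes Cdkn1a, a p53 target, at 565 and 559 TPM and Cdkn1c at 299.8 and 291 TPM. The endoplasmic reticulum chaperones Hspa5 and Hsp90b1 had 2054 and 2217 TPM and 1067 and 1086 TPM, the p53 target Bax 623 and 614 TPM and the small heat shock gene Hspb1 759 and 454 TPM. All 35 ribosomal protein genes were expressed, Rpl4 and Rplp0 at 2952 and 3083 TPM and 2862 and 3032 TPM the highest.

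The control libraries were close for most genes. Across the 12216 expressed genes log2(CPM + 1) correlated at Pearson's r 0.980 and Spearman's rho 0.979, as a description over genes that are not independent. The median gene differed by 1.21-fold in either direction, 80.1% of genes lay within 1.5-fold and 94.4% within 2-fold, and the common biological coefficient of variation was 22.2%. The difference exceeded counting noise, with a mean chi-square of 64.6 and a median of 11.5 a gene. Technical and biological variation cannot be told apart in it. Control 1 was at least 2-fold above control 2 for 553 genes, 4.53% of those expressed, and control 2 above control 1 for 134, or 1.10%.

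Genes higher in control 1 were rich in G and C. GC content was taken from the longest transcript of each gene. For genes higher in control 1 its median was 56.5%, against 49.3% over all expressed genes and 47.6% for genes higher in control 2. The ratio of control 2 to control 1 had a Spearman rho of -0.418 with GC content across 12185 genes. In the lowest of 20 GC bins the median gene was 1.13-fold higher in control 2, and in the highest bin it was 1.38-fold higher in control 1. After centring on the GC bins, 220 genes were 2-fold higher in control 1 and 181 in control 2. The part of GC content in any single gene's ratio was not tested.

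Among genes at 5 CPM or more in the mean, predicted genes and clone names left aside, Junb, an immediate early AP-1 gene, had the largest ratio towards control 1, 64.3 and 12.7 CPM, 5.06-fold (95% counting interval 4.51 to 5.69) higher in control 1. Vps37b, Cdc42bpb, Nkx2-5, Lypla2, Sf3a2, Mapk7, Cnot3, Zfp444 and Tmem161a followed, at 5.04 to 3.60 times. After GC centring the ratios of these 10 genes ran from 3.66 for Junb to 2.95 for Tmem161a. Genes on the other strand overlap 42.5% of the exons of Vps37b, 16.1% of Sf3a2 and 13.7% of Cdc42bpb, and smaller parts or none of the rest. The kit does not keep strand, so an unstated part of those counts may come from the other strand. Listed genes among those at least 2-fold higher in control 1 included Dvl2, a WNT transducer, at 2.93 times, the laminin chain gene Lama5 at 2.85, the endothelial gene Plvap at 2.95, Ccnd3 at 2.82 and Wnt5a at 2.45 times. Of the 701 expressed listed genes outside the blood lists, 49 were 2-fold higher in control 1 and 9 in control 2. Over all 12216 expressed genes the numbers were 553 and 134.

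Blood genes went the other way. Of 45 genes on the blood factor, red cell and megakaryocyte lists 38 were expressed, and 33 of these were higher in control 2, 13 at least 2-fold and none at least 2-fold in control 1. Their median ratio was 1.69, and 2.12 after GC centring, beside 0.982 over all expressed genes. By list the median was 2.33 for red cell genes, 1.75 for blood factors and 1.24 for megakaryocyte and platelet genes. After GC centring these were 2.29, 2.13 and 1.71. Of the 12 expressed megakaryocyte and platelet genes 3 were at least 2-fold higher in control 2 and 3 were lower there. Over all 12216 expressed genes, 5802 were higher in control 2, 134 of them at least 2-fold. Hba-x was 3.31-fold (95% counting interval 3.27 to 3.34) higher in control 2, and Pf4, the platelet chemokine gene, 3.83-fold (95% counting interval 2.88 to 5.16). Gfi1b, a repressor needed for red cells and megakaryocytes, was 2.43 times higher, with 13.2 and 32.1 CPM. Redrum, a noncoding RNA of red cell development, and Mmrn1, of platelets, were among the 10 genes with the largest ratio in that direction, at 5.64 and 3.45 times, as were Tmprss11f, Prkar2b, Ptpre and Gja6.

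Among the same genes the largest ratio towards control 2 belonged to an epithelial gene. Cldn4, a tight junction gene, had 94 and 553 counts, 5.82-fold (95% counting interval 4.67 to 7.32) higher in control 2. Its family member Cldn6 had 7 and 220, Epcam 23 and 67 and Cdh1 49 and 101, all picked out after the values were known. Rbp4, of visceral endoderm, had 83 and 198 counts, while Hnf4a, Apoa4 and Apoc2 remained at 0 in both. Over the 16 epithelial genes 9 were expressed, or 56.25%, near the 53.1% of all protein-coding genes. Of these 9, Cldn4 and Cdh1 were at least 2-fold higher in control 2, as were 134 of all 12216 expressed genes. Of the 9, 4 were lower in control 2, among them the 3 keratins of highest level, and the summed level of the list was 11217 and 9213 TPM. Whether the explants of control 2 held more blood or epithelial cells was not tested.

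**Figure D5:**
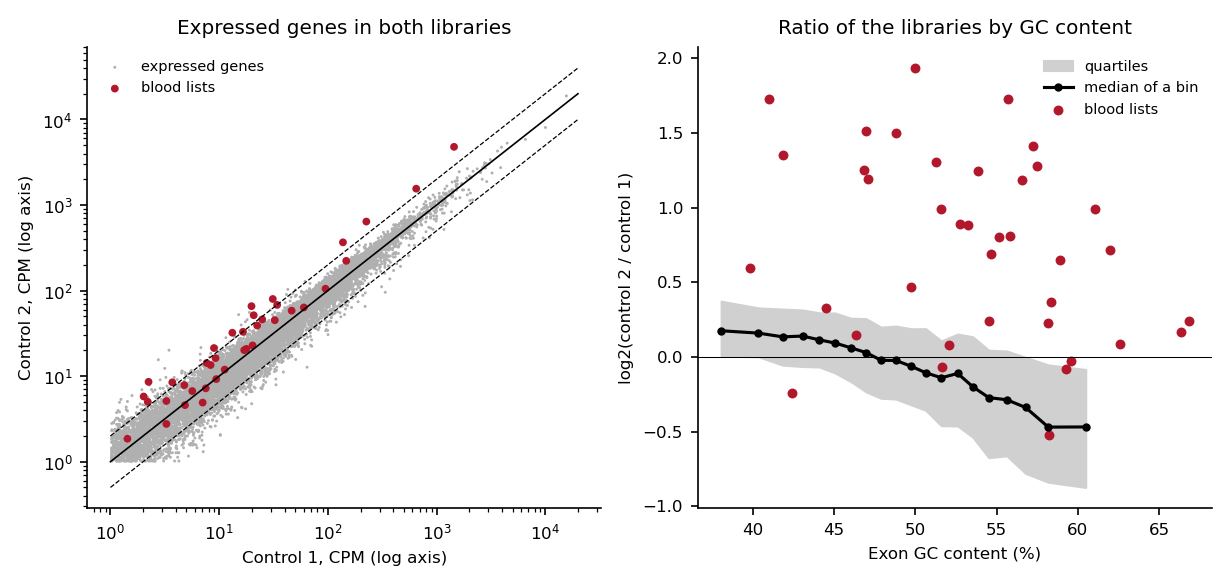
Left, CPM of the expressed genes in control 1 and control 2 on log axes, with a solid line of equality, dashed lines at 2-fold and the blood lists in red. Right, log2 ratio of control 2 to control 1 against exon GC content in 20 bins (black median, grey quartiles) with the expressed genes of the blood lists in red, most of which lie above 0 and above the median of their bin. Exon GC content is that of the longest transcript of a gene.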

How the data were processed

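Total RNA from explants was converted to cDNA by template switching with a low-input kit and sequenced, per the labels' protocols. CASAVA 1.8.2, STAR 2.7.9a, DESeq2 1.40.1 and the build GRCm38 are named in the submitters' processing notes. For the counting step, annotation release and filters, the entry is not given in the sources used here. The 2 deposited tables hold, per the file headers, raw counts per gene and the authors' normalized signal, log2 fold changes, Wald score and p-values. Only the deposited raw counts of the 2 control libraries were used to describe levels. They are identical in both tables. The authors' normalized signal, log2 fold changes, scores and p-values were not used.

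CPM divides a count by the library's total. TPM uses the union exon length of GENCODE M21, in which 45229 of 46078 gene IDs were found. GC content is that of the longest GENCODE M21 transcript of a gene. The common biological coefficient of variation came from edgeR 4.0.16 in R 4.3.3, with an intercept alone, on expressed genes, and DESeq2 1.42.0 gave size factors for an alternative. Counting intervals of ratios are exact binomial 95% intervals, and those of shares of the counts are Wilson 95% intervals. Both cover counting error only. The calculations were checked on simulated counts. Promoters were read from a RefSeq table and searched over 250 bases, on both strands. No column was left unmapped, and groups were not compared.

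The genes described and the 67 lists of 1025 genes, 1023 of them in the tables, were chosen with earlier results of these data known. Named were the 25 highest genes by CPM, up to 4 expressed members of each list by TPM and up to 6 near 0, 12 genes of the study's pathways, and by ratio between the libraries 10 genes in each direction and 1 of each list, at 5 CPM or more and 10 counts in each library for the former. Genes named outside this rule are said to be so where they appear. Some listed genes that this rule would name are not reported here.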

Additional observations from a re-analysis of the deposited data

How the results depend on the processing

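The count of expressed genes stayed within 1.5 times of 12216 at 0.5 CPM, 5 CPM or 1 TPM and under TMM or DESeq2 scaling, with 9626 to 13294 genes, and was 12606 to 12666 with either library left out. The number of lists with more genes expressed than not was 48, ranging from 38 to 50, and 48 to 50 with either library left out. At 5 CPM the number of expressed members moved by over 1.5 times in 15 of the 67 lists, from 4 to 0 for intermediate mesoderm and for Hox B, 3 to 0 for white cells, 13 to 6 for retinoic acid, 12 to 6 for megakaryocytes, 9 to 4 for glucose and lactate transport and 7 to 3 for the streak. Genes 2-fold higher in control 2 numbered 2404 without a CPM filter (prior count 1), 31 at 10 CPM or more in the mean and 4 at 4-fold. Genes higher in control 1 numbered 3674, 243 and 12 in the same order, and the total 6078, 274 and 16. GC centring, an alternative chosen after seeing the data, gave 220 genes higher in control 1 and 401 in all. Over all genes with a count, Pearson's r was 0.991, Spearman's rho 0.951 and the coefficient of variation 26.9%. A 4-fold threshold and a cut of 5 CPM in both libraries can only lower a count, by construction. Asking for 10 CPM in the mean leaves out genes of low level, and dropping the CPM filter lets them in. The cause of the other shifts was not tested.

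Ratios and agreement need both libraries, and leaving 1 out gives no value there. Low genes carry few counts and wide counting intervals. No paired analysis was possible because a single group is described and no groups are compared.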
